A study of Homo sapiens with 6 samples.

Results

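The UHRF, DNMT and TET genes write, maintain and remove methylation of cytosine in DNA. They are 9 of the 20033 protein-coding genes of GENCODE release 44 and were taken by name: UHRF1, UHRF2, DNMT1, DNMT3A, DNMT3B, DNMT3L, TET1, TET2 and TET3. For each of them, peaks bound by the UHRF1 tandem Tudor domain (TTD) were looked up in the gene body, in windows of 2.5 kb on each side of the transcription start sites (TSSs) of all transcripts, and in the 100 kb on each side of the gene. The comparison addresses whether a reader domain of UHRF1 marks the loci of the DNA methylation machinery itself.

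In CIDOP, a GST-tagged reading domain replaces the antibody of a ChIP experiment. Here the bait comprised residues 126 to 280 of human UHRF1, and native mononucleosomes came from untreated HepG2 cells, an established line derived from a human hepatoblastoma. TTD CIDOP, H3K9me2 ChIP and input had 2 biological replicates each, 6 libraries in all. The values reported here come from 1 list of 31569 broad TTD peaks that the authors called on the mean of both TTD replicates, and the H3K9me2 ChIP and input signals were not analysed here. The list gives positions and widths on hg38 but no score, and with both replicates pooled it carries no error between them and the read depth behind a peak is unknown. A gene without a peak is therefore a gene without one at the cutoffs of the authors. The identity of the cells was not checked against markers, since peak positions hold no expression values.

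UHRF1 couples histone marks to DNA methylation. Its TTD binds the tail of histone H3 methylated at K9, its SRA domain binds hemimethylated CpG sites behind the replication fork, and its RING domain ubiquitinates H3, which recruits the maintenance enzyme DNMT1. DNMT3A and DNMT3B methylate unmodified sites de novo, with DNMT3L as a catalytically inactive cofactor, whereas the TET dioxygenases oxidise methylcytosine as a step towards its removal.

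The genes differed in whether they carried TTD peaks at all. A TTD peak was present in the gene body of 6 of the 9 genes, UHRF2, DNMT3A, DNMT3B, TET1, TET2 and TET3, and 34.2% of all protein-coding genes had one. Long genes have more room for a peak, and 6 of the 9 genes belong to the longest quartile of protein-coding genes, from 71720 bp upwards. Of these 6 genes, 5 had a peak in the body, against 69.7% of the 5008 genes in that quartile. In the next quartile 1 of 2 had one, against 38.4%, and in the one below 0 of 1, against 20.5%. With so few genes in each quartile, nothing is read from these differences. A TSS window with a peak was found for UHRF2, DNMT3A, TET2 and TET3, 4 of 9 genes against a background of 24.9%. The flanks of 7 genes held a peak, and those of 79.2% of protein-coding genes did. UHRF1 and DNMT1, the pair that maintains methylation after replication, had no peak in any of these windows, which was true of 17.6% of protein-coding genes. The counts depend on narrow peaks. When peaks narrower than the median of the list were left out, UHRF2, TET2 and TET3 had a body peak, 3 of 9 genes against 20.5% of protein-coding genes, and UHRF2 and TET3 had one in a TSS window, 2 of 9 against 12.3%.

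**Figure D1:**
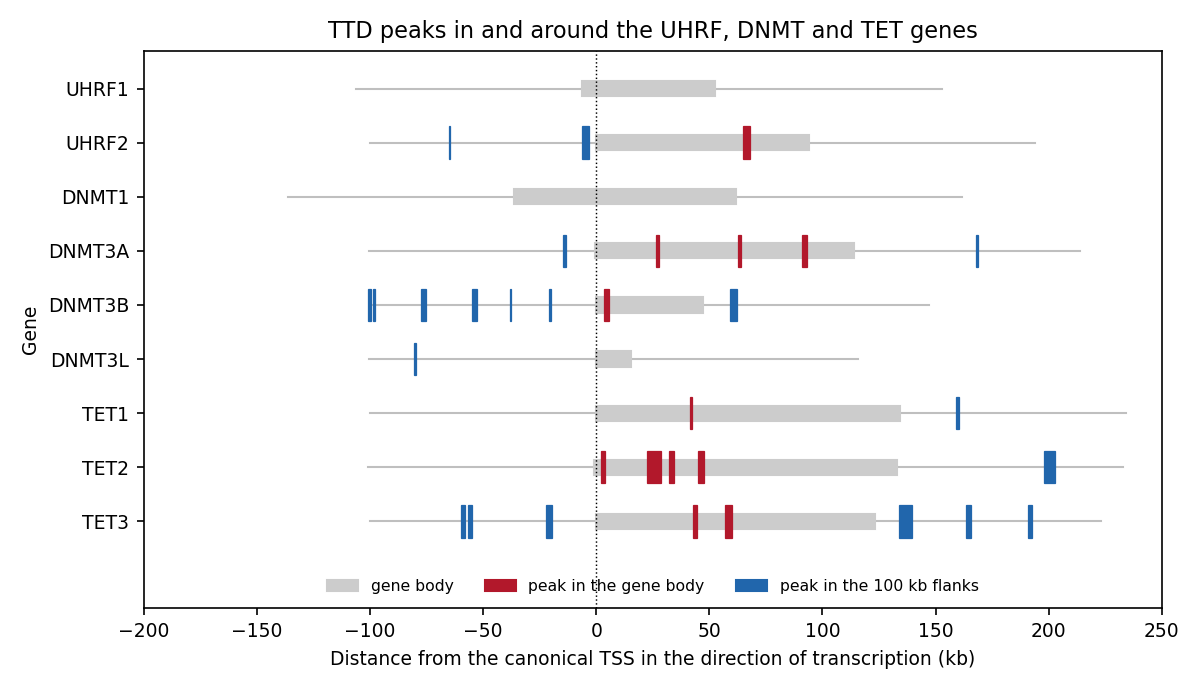
Map of the 9 genes by distance from the canonical TSS in the direction of transcription (kb), with the gene body as a grey bar, the 100 kb flanks as a line, peaks in the gene body in red and peaks in the flanks in blue, drawn to scale. The rows of UHRF1 and DNMT1 are empty, and the 4 body peaks of TET2 lie in its first part.

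The sequences below are examples of start sites and peaks at these genes. They comprise the promoters of UHRF1 and DNMT1, which had no peak, and the canonical promoter of TET2 and 1 of 3 internal promoters of DNMT3A together with the centre of the peak next to each, 300 bases per sequence, 5′ to 3′ on the strand of the gene, with CpG sites in capitals. The promoters are RefSeq sequences on GRCh38.p14 and reach from 250 bases before the start to 50 bases after it, and the peak centres were read from hg38. The positions are chr19:4909251-4909550 on the plus strand for UHRF1, chr19:10194904-10195203 on the minus strand for DNMT1, chr4:105146626-105146925 and chr4:105149886-105150185 on the plus strand for TET2, and chr2:25252266-25252565 and chr2:25249611-25249910 on the minus strand for DNMT3A.
UHRF1 promoter: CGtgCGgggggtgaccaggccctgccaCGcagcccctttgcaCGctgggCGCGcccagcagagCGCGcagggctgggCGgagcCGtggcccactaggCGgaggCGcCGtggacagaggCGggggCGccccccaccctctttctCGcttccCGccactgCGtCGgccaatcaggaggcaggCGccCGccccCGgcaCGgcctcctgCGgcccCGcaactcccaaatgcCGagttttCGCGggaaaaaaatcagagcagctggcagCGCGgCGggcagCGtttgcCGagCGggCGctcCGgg
DNMT1 promoter: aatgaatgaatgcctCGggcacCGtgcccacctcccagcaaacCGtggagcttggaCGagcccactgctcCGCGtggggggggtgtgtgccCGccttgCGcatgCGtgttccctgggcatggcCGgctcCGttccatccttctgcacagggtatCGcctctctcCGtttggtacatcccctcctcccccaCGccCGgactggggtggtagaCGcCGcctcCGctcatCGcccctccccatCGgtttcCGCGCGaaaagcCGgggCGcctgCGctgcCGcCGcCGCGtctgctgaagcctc
TET2 promoter: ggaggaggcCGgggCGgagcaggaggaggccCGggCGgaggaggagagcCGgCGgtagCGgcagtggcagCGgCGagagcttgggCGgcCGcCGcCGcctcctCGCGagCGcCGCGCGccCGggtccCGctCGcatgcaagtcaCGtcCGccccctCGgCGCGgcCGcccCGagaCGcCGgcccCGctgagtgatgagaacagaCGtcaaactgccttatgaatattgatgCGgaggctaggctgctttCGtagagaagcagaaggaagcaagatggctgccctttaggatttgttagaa
TET2 peak centre: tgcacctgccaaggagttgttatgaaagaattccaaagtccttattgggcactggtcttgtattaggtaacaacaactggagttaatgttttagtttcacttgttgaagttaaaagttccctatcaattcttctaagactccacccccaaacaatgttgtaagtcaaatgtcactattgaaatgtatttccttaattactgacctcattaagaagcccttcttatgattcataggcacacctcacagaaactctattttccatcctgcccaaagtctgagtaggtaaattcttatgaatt
DNMT3A internal promoter: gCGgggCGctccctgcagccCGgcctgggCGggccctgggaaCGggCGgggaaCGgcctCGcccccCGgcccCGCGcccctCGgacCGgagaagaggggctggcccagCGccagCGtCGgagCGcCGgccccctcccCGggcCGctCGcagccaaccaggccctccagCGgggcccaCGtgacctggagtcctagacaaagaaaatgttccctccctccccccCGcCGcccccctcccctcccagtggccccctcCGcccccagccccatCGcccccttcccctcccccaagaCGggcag
DNMT3A peak centre: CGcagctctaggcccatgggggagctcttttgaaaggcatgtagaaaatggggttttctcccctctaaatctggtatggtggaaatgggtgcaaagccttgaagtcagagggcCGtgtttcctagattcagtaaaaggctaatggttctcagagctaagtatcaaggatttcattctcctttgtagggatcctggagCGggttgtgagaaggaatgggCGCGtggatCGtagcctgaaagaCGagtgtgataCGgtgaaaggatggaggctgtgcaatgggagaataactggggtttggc

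The motif CG, which reads the same on both strands, occurred 36 times in the UHRF1 promoter shown and 30 times in the DNMT1 promoter. The other RefSeq promoters of UHRF1 had 40 and 46 CpG sites. In TET2 the motif occurred 35 times in the canonical promoter, 13 times in the other RefSeq promoter and 0 times in the centre of the nearest peak. The internal DNMT3A promoter shown had 28 CpG sites, the other 2 internal ones 26 and 18, and the centre of the peak 8. Of 35116 RefSeq promoters of this length, 96.0% held at least 1 CG and the median was 14. Of the 31569 peak centres of the same length, 87.5% held 1 or more, with a median of 2. RefSeq promoters were found for 8 of the 9 genes, 19 in all, and none for DNMT3L. They had between 3 and 46 CpG sites with a median of 26, and the centres of the 12 body peaks between 0 and 10 with a median of 1. Some of the 19 promoters overlap, among them the 3 internal ones of DNMT3A, so that some CpG sites were counted more than once. DNMT3B was the reverse of the examples, with 3 CpG sites in its RefSeq promoter, whose start lies 17467 bp from the canonical TSS, and 10 in the centre of its peak. The promoters of TET1 had 6, 10 and 11 and the centre of its peak 1.

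UHRF1, the source of the bait, lies on the plus strand of chromosome 19 (chr19:4903080-4962154, 59075 bp). None of its 7 TSSs had a peak within 2.5 kb, and the nearest peak was 202496 bp from the gene. Only 8.30% of protein-coding genes, and 18.0% of those on chromosome 19, were as far from a peak. The gene lies in a stretch of 853 kb without a peak that contains 20 protein-coding genes, its neighbours PLIN3, TICAM1, ARRDC5 and KDM4B among them. KDM4B, a demethylase of H3K9me3, had no peak over 184486 bp. The stretch ends at peaks of 2190 bp in FSD1 on one side and of 1870 bp in PTPRS on the other. It is the 13th longest of 351 such stretches on the chromosome, and stretches of this length or more make up 28.6% of chromosome 19 and 30.0% of the genome. Both shares count all bases, also those in assembly gaps and blacklisted regions, where no peak could be listed. They therefore do not tell how rare such a position is.

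DNMT1, the maintenance methyltransferase, had the largest number of TSSs among the 9 genes, 43 over 97945 bp (chr19:10133342-10231286, minus strand), and none had a peak within 2.5 kb. Of protein-coding genes with 20 or more TSSs, 41.2% had a peak in a TSS window, but on chromosome 19 this was 9.26% of 54 genes. The nearest peak was 129391 bp from the gene, in COL5A3, and on the other side no peak was listed for 532144 bp, up to a peak in DNM2. As at UHRF1, the neighbours lie in the same stretch without peaks as the gene. None of the 16 protein-coding genes within 100 kb of DNMT1 therefore had a peak. These 16 genes include S1PR2, ICAM1, ICAM4 and ICAM5, and the whole stretch of 759 kb holds 31 protein-coding genes.

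Both maintenance genes lie on the autosome with the lowest cover by TTD peaks. Peaks covered 1.26% of chromosome 19 against 3.02% of the genome. On this chromosome, 12.5% of protein-coding genes had a peak in the body, 10.9% in a TSS window and 60.2% in the flanks, and 37.4% had none in the body, the TSS windows or the flanks. Among the 79 genes of chromosome 19 in the longest quartile, to which DNMT1 belongs, 40.5% had a peak in the body, and among the 365 genes in the quartile of UHRF1 this was 21.9%. A lack of peaks is therefore common on this chromosome.

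UHRF2, the paralogue of UHRF1 with the same order of domains, had 1 peak in its body (chr9:6413151-6507054, plus strand, 93904 bp). This peak of 2920 bp (chr9:6478101-6481020) lies in intron 6 of 15 in the canonical transcript and overlaps no exon. It covers 3.11% of the gene, and 23.0% of protein-coding genes were covered at least as much. The peak ends 1030 bp upstream of an internal TSS, that of a transcript without a defined coding sequence, which is the single one of 13 TSSs with a peak in its window. A peak of the same width, 2920 bp (chr9:6406911-6409830), lies upstream of the gene, 3368 bp from the canonical TSS. The canonical promoter between these peaks had a CpG observed/expected ratio of 0.964 over 1 kb, the highest among the 9 genes. In its upstream flank UHRF2 also had the narrowest peak at any of these genes, 440 bp and 64548 bp from the canonical TSS, with TPD52L3 as the gene with the nearest TSS.

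DNMT3A had 3 peaks in the body (chr2:25227855-25342590, minus strand, 114736 bp), which cover 4.27% of it. None lies near the start of the long isoform, whose TSS is 13185 bp from the nearest peak. That peak, of 1680 bp, lies upstream of the gene. The widest body peak, of 2060 bp (chr2:25248731-25250790), lies in intron 6 of 22, downstream of the internal promoter from which a shorter isoform starts. Of the 15 TSSs of DNMT3A, 6 have this peak within 2.5 kb. One of them lies inside the peak, and this was the only TSS within a peak among the 112 TSSs of the 9 genes. The internal promoter shown above lies 1475 bp from the peak. The 5 kb window around the GENCODE TSS in it, shared by 2 coding transcripts, was covered to 19.6%, on the downstream side alone. The other body peaks, of 1340 and 1500 bp, lie in introns 4 and 1, and the latter contains 61 bp of exon sequence of the canonical transcript. In the TSS windows as a whole, the cover of DNMT3A was 8.82%, and 15.5% of protein-coding genes reached this value. Without peaks narrower than the median of the list, its cover was 0% in the body and 0% in the TSS windows.

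DNMT3B, the other de novo enzyme, had 1 peak in the body (chr20:32762385-32809359, plus strand, 46975 bp) and 7 in the flanks, the largest number in the flanks of any of the 9 genes. The body peak of 2220 bp (chr20:32765901-32768120) lies in intron 1 and covers 4.73% of the gene. Without peaks narrower than the median of the list, the body cover was 0%. The body peak begins 3515 bp downstream of the canonical TSS and thus outside all TSS windows of the gene. Within windows of 5 kb on each side DNMT3B would be counted. The flank peaks cover 5.19% of the flanks, or 2.79% without peaks narrower than the median of the list, and all 7 lie in other protein-coding genes. Upstream, 3 lie in COMMD7 and 2 in C20orf203, and downstream the widest one, of 3180 bp, lies in MAPRE1, 1636 bp from its TSS. All 5 neighbouring protein-coding genes had a peak in the body. The long readthrough gene ENSG00000285382 holds 6 of these peaks, those in COMMD7 and C20orf203 included.

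DNMT3L, which is used mainly in germ cells and early embryos, had no peak in its short body of 15878 bp (chr21:44246339-44262216, minus strand) or near its 4 TSSs. Of the protein-coding genes in its length quartile, 20.5% had a body peak. A single peak of 920 bp (chr21:44341591-44342510) lies in its flanks, 79693 bp upstream of the canonical TSS and 2200 bp from the TSS of CFAP410. The canonical TSS of DNMT3L also differed from the others in sequence, with a CpG observed/expected ratio of 0.229, against 0.666 or more for the other 8 genes.

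The TET genes had peaks in all 3 gene bodies. TET2 stood out among the 9 genes, with 4 peaks that cover 9.21% of its body (chr4:105145875-105279816, plus strand, 133942 bp), and 11.0% of protein-coding genes were covered at least as much. All 4 lie in introns 1 and 2 of 10 and begin between 2254 and 44934 bp downstream of the canonical TSS. The first, of 1810 bp (chr4:105149131-105150940), reaches into the windows of 6 of the 8 TSSs without containing any of them. On the upstream side of these TSSs no cover was found. The second, of 5880 bp (chr4:105169411-105175290), is the widest body peak at the 9 genes and overlaps the antisense gene TET2-AS1, and 9.50% of all TTD peaks were at least as wide. The others measure 1920 bp (chr4:105179151-105181070) and 2720 bp (chr4:105191811-105194530). With 12.5%, TET2 also had the largest cover in TSS windows among the 9 genes. This value rests on the 1810 bp peak, and without peaks narrower than the median of the list it was 0%, with UHRF2 the largest at 3.97%. In chromosome 4 genes of the longest quartile, 63.8% had a body peak and the median cover was 0.980%, so that TET2 lay well above the median of genes of like length on its own chromosome.

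TET3, the TET enzyme of the oocyte and zygote, had 2 peaks in the body (chr2:73984910-74108176, plus strand, 123267 bp). They cover 3.59% of the body, or 2.27% without peaks narrower than the median of the list. They measure 1630 bp (chr2:74027751-74029380) and 2800 bp (chr2:74042041-74044840), and both lie in intron 3 of 11. The second lies 2319 bp from an internal TSS of a transcript with a retained intron, which gave TSS windows a cover of 1.09%. The canonical TSS was 19479 bp from the nearest peak. Its 6 flank peaks cover 7.86% of the flanks, or 4.34% without peaks narrower than the median of the list, in both cases the highest value of the 9 genes, and include the widest peak at any of these genes, 5960 bp (chr2:74118551-74124510). TET1, the TET enzyme of pluripotent cells, had 1 body peak of 820 bp (chr10:68601661-68602480), the narrowest in a body here. It covers 0.611% of the 134151 bp of the gene (chr10:68560337-68694487, plus strand) and lies in intron 3 of 11, 41323 bp from the single TSS of GENCODE. A RefSeq promoter within TET1 lies 1137 bp from this peak, so that the distance depends on the annotation. The only flank peak of TET1, of 1460 bp, lies 338 bp from the TSS of CCAR1.

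**Figure D2:**
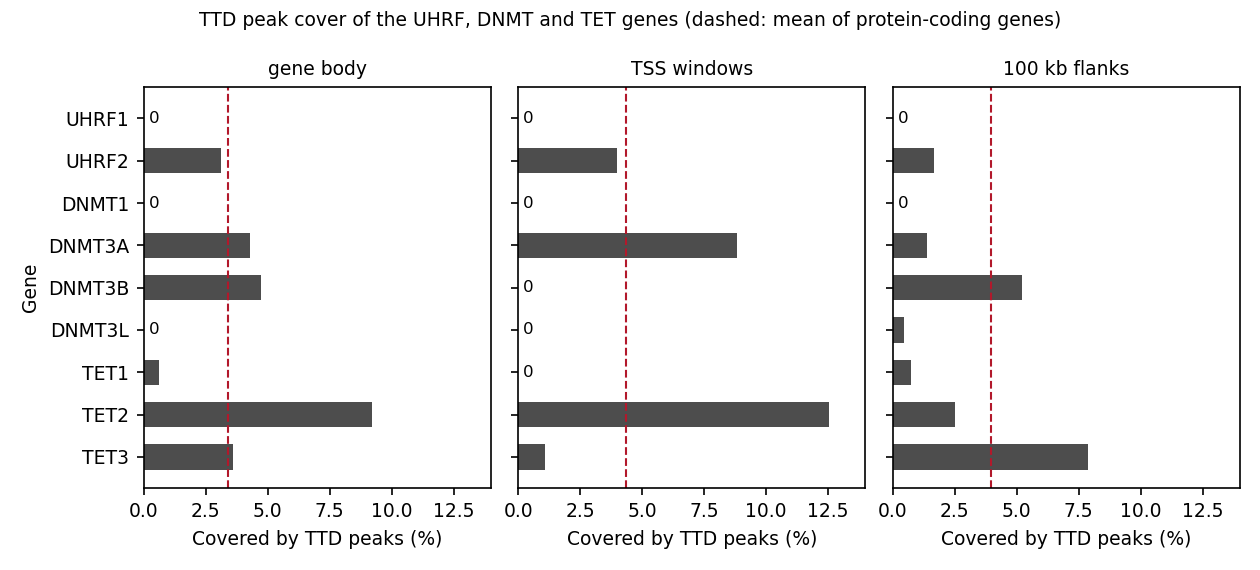
Percent of the gene body, of the TSS windows (2.5 kb on each side of all TSSs) and of the 100 kb flanks covered by TTD peaks, as 1 bar per gene from the pooled peak list, without error bars since replicates were pooled. The dashed lines mark the means over 20033 protein-coding genes, 3.39% for gene bodies, 4.34% for TSS windows and 3.94% for flanks.

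Over the 9 genes, the median cover was 3.11% for the gene body, 0% for the TSS windows and 1.36% for the flanks. All protein-coding genes had medians of 0%, 0% and 2.06%. In the longest quartile the median body cover was 1.62%. Without peaks narrower than the median of the list, the median body cover was 0% for the 9 genes, for all genes and for the longest quartile alike, and the median flank cover was 0% for the 9 genes and 1.24% for all genes. The means were 2.84%, 2.94% and 2.2% for the 9 genes, and each was below the mean of all protein-coding genes. By family, body peaks covered 4.49% of the summed length of the TET genes, 2.58% of the DNMT genes and 1.91% of the UHRF genes. The order depends on narrow peaks. Without them, in a comparison added after the data were seen, the shares were 2.91% for TET, 0% for DNMT and 1.91% for UHRF. These values rest on few genes, and the difference between the families was not tested.

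Of the 12 body peaks, none contained a canonical TSS and 2, both in DNMT3A, overlapped an exon. In 9 the midpoint lay in the first 50% of the gene, and these include all 4 body peaks of TET2. The same shares were not computed for TTD peaks in all gene bodies, so no trait of the 9 genes is read from these counts. The median width of the 12 body peaks was 1990 bp, and that of all TTD peaks was 2250 bp. At the canonical TSSs, 0 of 9 genes had the TSS inside a peak, against 2.19% of protein-coding genes, and 1 gene, TET2, had a peak within 2.5 kb, against 16.9%. When all 112 TSSs were considered, 15 had a peak in the window, and of the 146431 TSSs of all protein-coding genes 14.8% had one. Of these 15, 6 belong to TET2 and 7 to DNMT3A.

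**Figure D3:**
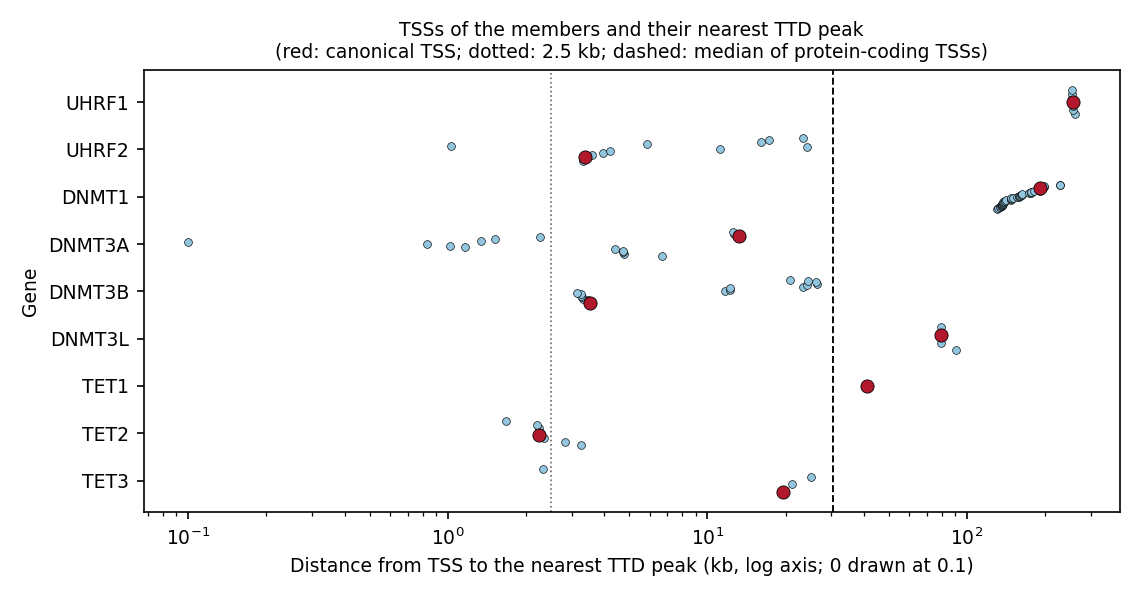
Distance from each of the 112 TSSs to the nearest TTD peak (kb, log axis, with the TSS inside a peak drawn at the left edge), with canonical TSSs in red, other TSSs in blue, the window limit dotted and the median of protein-coding canonical TSSs, 30524 bp, dashed. The canonical TSSs of UHRF2, DNMT3A, DNMT3B, TET2 and TET3 lie below this median and those of UHRF1, DNMT1, DNMT3L and TET1 above it.

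Canonical start sites and peaks of the 9 genes differed in base composition. The CpG observed/expected ratio over 1 kb around the canonical TSS lay between 0.666 and 0.964 in 8 of 9 genes, with DNMT3L at 0.229, and the median of protein-coding genes was 0.725. In the body peaks it ranged from 0.0592 in the first peak of TET2 to 0.331 in the DNMT3A peak at the internal start, with a median of 0.153. Some internal TSSs lay in this range, such as that of UHRF2 next to its peak (0.269) and that of DNMT3A inside a peak (0.257). The median of all TTD peaks was 0.193. All peaks in the bodies of TET1, TET2 and TET3 were below this median, and all in those of UHRF2, DNMT3A and DNMT3B above it. The flank peaks had a higher median of 0.267. The median over all TTD peaks was 0.883 CpG sites per 100 bp, whereas the first peak of TET2 had 3 in 1810 bp.

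**Figure D4:**
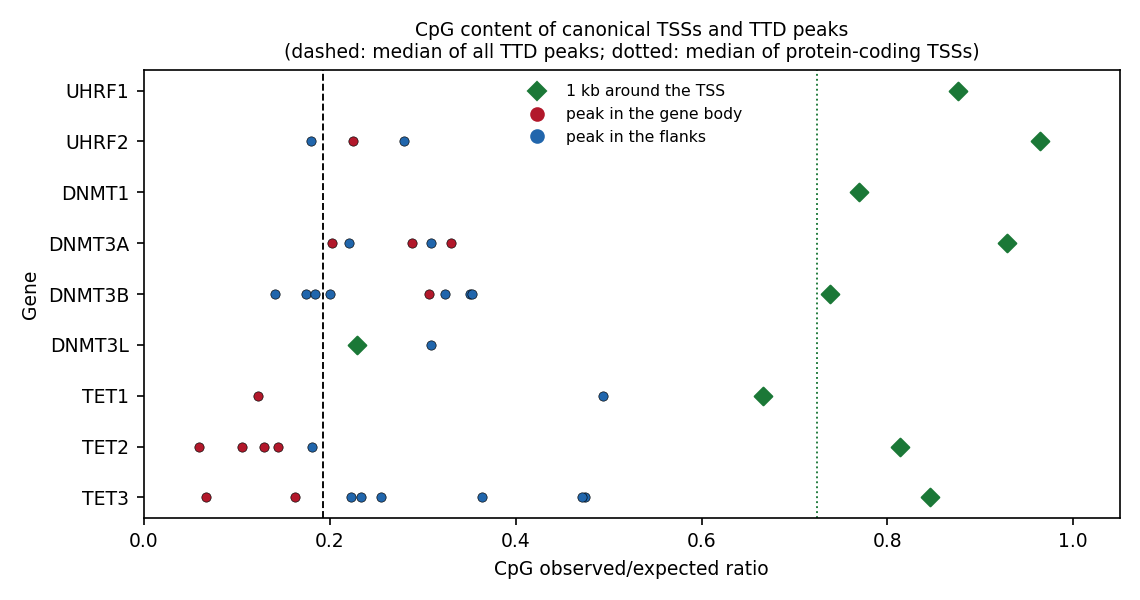
CpG observed/expected ratio of the 1 kb around each canonical TSS (green diamonds), of each peak in the gene body (red) and of each peak in the flanks (blue), with the medians of all TTD peaks (dashed, 0.193) and of protein-coding TSSs (dotted, 0.725). In all genes with peaks except DNMT3L, the TSS lies to the right of the peaks.

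The flanks held 20 peaks in total, and for 3 of them the nearest canonical TSS of a protein-coding gene was that of the member itself. These 3 are the peaks 3368 bp upstream of UHRF2, 13185 bp upstream of DNMT3A and 19479 bp upstream of TET3. In the flanks of TET3, DGUOK, which encodes mitochondrial deoxyguanosine kinase, had peaks at 189 and 1250 bp from its TSS. The TSS of BOLA3 lies 618 bp and that of MOB1A 1518 bp from a peak. The second widest peak in the flanks, of 5050 bp, lies downstream of TET2, 124241 bp from the TSS of PPA2, while the peak downstream of DNMT3A lies 4390 bp from the TSS of POMC. Which gene a peak may act on was not measured.

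The chromosomes of the genes differ in their general cover. Chromosome 20, with DNMT3B, ranked 1 of 24 with 7.04%, and chromosome 2, with DNMT3A and TET3, ranked 2 with 5.67%. The other genes lie on chromosomes with 3.17% (TET1), 2.14% (TET2), 2.1% (UHRF2), 1.79% (DNMT3L) and 1.26% (UHRF1 and DNMT1). On chromosome 2, 85.2% of the genes in the longest quartile had a body peak and their median cover was 4.40%, close to the 4.27% of DNMT3A and above the 3.59% of TET3. On chromosome 20, 63.3% of genes in the quartile of DNMT3B had one, with a median of 3.57%. Chromosomes 2 and 20 are known to be gained in HepG2 cells. The methods name no correction for copy number, which was not measured here, and its part in these values was not tested.

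Genes that act with the members were read in the same way, in lists chosen by function. Of 58 such genes, 16 had a body peak, or 27.6%, and 18 had a peak in a TSS window, or 31.0%. Among the partners and regulators of UHRF1, 2 of 6 had a body peak. The histone deacetylase HDAC1 had the largest body cover with 10.1%, and USP7, the deubiquitinase that stabilises UHRF1, had the largest TSS window cover with 5.65%. Among 7 readers of methylated DNA, ZBTB38 alone had peaks in the body or TSS windows, 7 in a body covered to 17.9%, with 21.8% of its TSS windows. Of the 7 remodellers and cofactors, ZBTB24 was covered to 8.32% in the body and CDCA7 to 10.5% in TSS windows. Among 6 genes that act after TET oxidation, SMUG1 had a body cover of 17.5%, and GADD45A a TSS window cover of 34.5%.

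**Figure D5:**
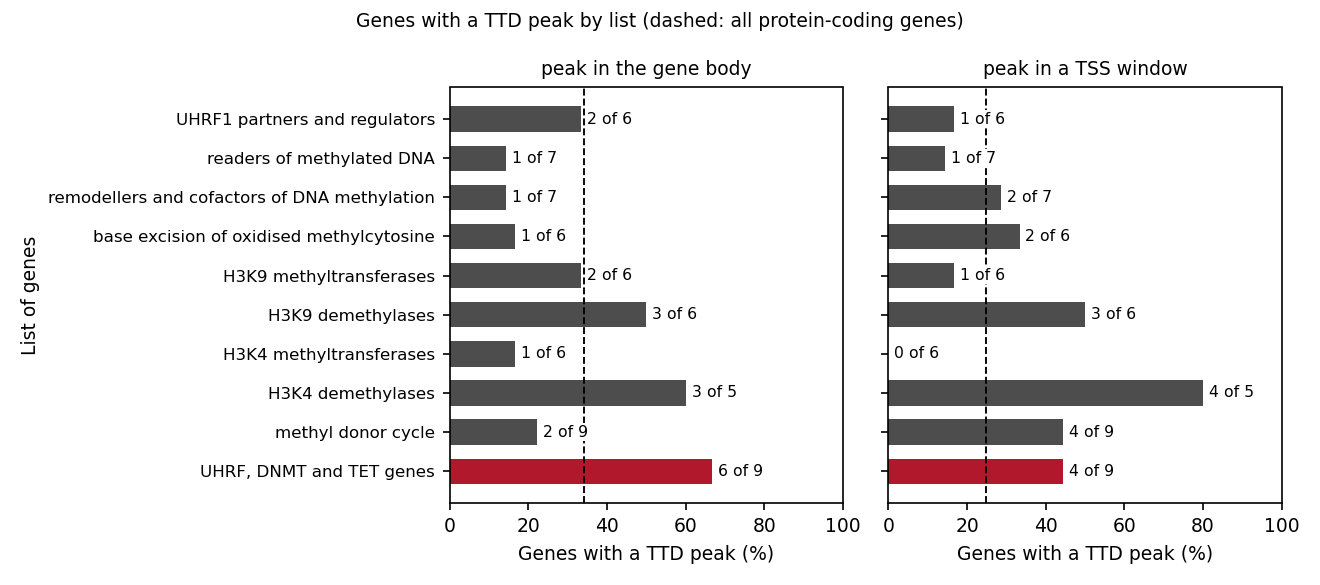
Share of the genes in each list with a TTD peak in the gene body (left) and in a TSS window (right), with the counts beside the bars and the UHRF, DNMT and TET genes in red. The dashed lines mark all protein-coding genes at 34.2% and 24.9%.

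Enzymes that set or remove methylation at K9 and K4 of H3 also varied. Of 6 H3K9 methyltransferases 2 had a body peak, SUV39H2 with a cover of 6.51% and SETDB2, which had the largest TSS window cover of 15.2%. EHMT1 had no peak over 251025 bp, in spite of its 52 TSSs. Of the 6 H3K9 demethylases, 3 had a body peak, and KDM4C had 14 of them, which cover 8.88%. KDM3A had the largest TSS window cover of this list, 9.89%. The H3K4 methyltransferases had 1 gene of 6 with a body peak, KMT2C with a cover of 0.991%, and none with a peak in a TSS window. Of the H3K4 demethylases, 3 of 5 had a body peak and 4 of 5 a peak in a TSS window, with KDM1A at 5.77% of the body and KDM1B at 12.6% of the TSS windows. In the methyl donor cycle, 2 of 9 genes had a body peak. MAT1A, the methionine adenosyltransferase of adult liver, was covered to 53.2% in the body and 56.7% in the TSS windows, the largest values of all 58 genes. Of all protein-coding genes, 34.2% had a body peak and 24.9% a peak in a TSS window. The lists are small and their genes differ in length, with a median of 68526 bp for the H3K4 demethylases and 35234 bp for the H3K4 methyltransferases, and no difference between lists was tested.

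Genes with values like those of a member were sought among protein-coding genes whose length was within 25% of it, by Euclidean distance over body, TSS window and flank cover. For UHRF1, 349 of 2550 such genes, or 13.7%, shared its values of 0 in all windows. For TET2, RAB27A was the closest of 1729 genes, at a distance of 1.03 percentage points, with 8.73% of its body and 12.2% of its TSS windows covered. WDR33 followed at 1.09 and CPE at 1.95 percentage points.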

How the data were processed

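TTD CIDOP was measured in HepG2 cells with 2 biological replicates. The authors used Trimmomatic 0.38 for trimming, HISAT2 2.2.1 for mapping to hg38 and deepTools 3.3.2 for coverage, averaged both TTD replicates and called broad peaks with MACS2 2.1.1, followed by removal of blacklisted regions and manual curation. They deposited 1 pooled peak list with positions and widths, without score or p-value. It was intersected with GENCODE release 44 in Python 3.11.15 (numpy 2.4.6, pandas 2.3.3, matplotlib 3.10.9), by routines checked on simulated peaks. An overlap of 1 bp counted as a peak present. Cover is the percent of a window in peaks, with overlapping TSS windows merged. Canonical TSSs are those of Ensembl canonical transcripts, and distances count the bases between. The CpG observed/expected ratio is CpG sites times length, divided by the product of the numbers of C and G. No test was made, since genes are not replicates. The members and lists were chosen with earlier results of these data known. Named genes were the members, those with the largest body and TSS window cover in each list, genes at peaks within 100 kb of a member (up to 5 each, by width), and the 3 genes closest to the member with the largest body cover, while of genes closest to UHRF1, which tied, only the number is given. EHMT1, MOB1A and genes around UHRF1 and DNMT1 were named after their values were seen. One gene of the lists is not reported here and was left out of their counts.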

Additional observations from a re-analysis of the deposited data

How the results depend on the processing

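Without scores, strictness could be varied only through width, by keeping the 15790 peaks of at least 2250 bp, the median. Then 3 members (UHRF2, TET2 and TET3) had a body peak, 2 a peak in a TSS window and 4 a peak in the flanks, and the median cover fell to 0% for bodies and 0% for flanks. Protein-coding genes with a body peak then numbered 4103 and those with a peak in a TSS window 2459, and 54.3% had a peak in the flanks. Of 62663 genes of any type, 11806 or 18.8% had a body peak, 9961 or 15.9% a peak in a TSS window and 45643 or 72.8% one in the flanks. In exons alone, 1 member had a peak and the median cover was 0%, and without TSS windows the median body cover was 2.44%. With 1 kb on each side of the TSS, 1 member had a peak, and with the TSSs of protein-coding transcripts 2. With the canonical TSS it was 1, against 16.9% of protein-coding genes. For exons, for 1 kb and for the TSSs of protein-coding transcripts, the share of all protein-coding genes was not computed. Nothing about the members is read from these 3 counts. With 5 kb on each side the median TSS window cover was 4.63%. Flanks of 50 and 250 kb had median covers of 1.46% and 2.36%. Within 50 kb 5 members had a peak, UHRF2, DNMT3A, DNMT3B, TET1 and TET3, and the share of protein-coding genes is not given for this window. Within 250 kb all 9 members had a peak, as did 93.0% of protein-coding genes, a share added after the data were seen. Joining peaks less than 1 kb apart, or requiring an overlap of 150 bp, changed none of the 3 counts of members with a peak. The cover of UHRF1 and DNMT1 was 0% in the body, the TSS windows of 2.5 kb and the flanks of 100 kb with either list. No paired analysis was possible because the deposited peaks come from the mean of both replicates.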
